A study of Basiliscus vittatus and Chrysopelea ornata and Dasypeltis gansi with 10 samples.

Results

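Genes of the axonal adhesion machinery, 8 of the 630 one-to-one orthologs measured in the cerebellum of 10 squamate species, are described here: contactin-2, contactin-4, contactin-5, neural cell adhesion molecule 1 (NCAM 1), neural cell adhesion molecule 2 (NCAM 2), neural cell adhesion molecule L1 (L1), neuronal cell adhesion molecule (neuronal CAM) and neurofascin. They were taken from the expression table by protein name, as the contactins, the L1 family and the NCAMs among its immunoglobulin superfamily proteins. The rule used names and no values, but the members were chosen with earlier results of these data known. Cerebellar RNA of adult, wild-type animals was sequenced, and each species has 1 column of FPKM, a count of sequenced fragments scaled to the length of the transcript and to the size of the library, so that levels of different genes are per length. The question behind the sampling was whether expression in the cerebellum goes with how the animals move.

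The 6 limbless species fell into 3 modes. Lateral undulation, the sideways wave along the trunk, was represented by 3 species of several habitats, the snakes Chrysopelea ornata and Pantherophis guttatus and the legless lizard Pseudopus apodus. Other movements were represented by 2 snakes of several habitats, Dasypeltis gansi and Python regius, and facultative burrowing by a sand boa, Eryx colubrinus. The study gives the movement of E. colubrinus as slow lateral undulation. Below, lateral undulation means the 3 species of several habitats alone. All 4 quadrupedal species were lizards: the terrestrial Lepidothyris fernandi, which its sample record names Mochlus fernandi, the terrestrial Pogona vitticeps, the arboreal Trioceros jacksonii and the facultatively bipedal Basiliscus vittatus. Counted by lineage there were 5 snakes and 5 lizards, and P. apodus alone was both limbless and a lizard. With 1 value per gene and species, the spread within a species is unknown, and every SD, SE and p-value below describes the spread between species, which share ancestry to different degrees. In bulk tissue, fewer cells of a type and less RNA per cell cannot be told apart.

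Cell adhesion molecules of the immunoglobulin superfamily sit on the surface of axons, dendrites and glia, where their stacked immunoglobulin and fibronectin-type domains bind the same molecule or a partner on a neighbouring cell. Contactins are held in the membrane by a lipid anchor, whereas L1, neuronal CAM and neurofascin cross it and are tied to the spectrin skeleton by ankyrins. That tie gathers neuronal CAM and neurofascin at nodes of Ranvier and at the start of the axon. In the vertebrate cerebellum these families are known for the growth and bundling of granule cell axons, for the synapses of basket cells on the Purkinje cell axon, and for the junctions between axon and myelin.

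The libraries differed in scale. The summed FPKM of the 630 genes lay between 6289 in L. fernandi and 15880 in E. colubrinus, and no value was 0. On log2(FPKM + 1), the difference of group means per gene had a median over all genes of 0.35 for limbless minus quadrupedal species. That median was 0.56 for snakes minus lizards and -0.39 for lateral undulation minus other limbless movements. Differences of single genes are therefore given as deposited and also after each library was centred to the same median. The 630 genes are those found in all 10 species, so the presence of cell type markers in every library was set by that choice. Levels of the markers differed. The summed FPKM of 3 granule cell markers (reelin, protocadherin Fat 2 and astrotactin-1) was between 109 and 691 in the 10 species. That of 3 Purkinje cell markers was between 23.7 in P. apodus and 193 in D. gansi. Inositol 1,4,5-trisphosphate receptor type 1, a calcium release channel abundant in Purkinje cells, was at 1.38 FPKM in P. apodus, against 155.74 FPKM in D. gansi.

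Among the 8 adhesion molecules, the L1 family stood highest and the contactins lowest. Neuronal CAM averaged 61.5 ± 30.4 FPKM, L1 59.6 ± 25.6 FPKM and neurofascin 55.3 ± 24.5 FPKM (SD over 10 species). NCAM 2 averaged 46.4 ± 49.2 FPKM and NCAM 1 45.6 ± 36.2 FPKM. The contactins were lower, with 21.3 ± 13.3 FPKM for contactin-2, 9.48 ± 9.96 FPKM for contactin-4 and 8.09 ± 6.09 FPKM for contactin-5. In the mean log2 level the order ran L1, neuronal CAM, neurofascin, NCAM 1, NCAM 2, contactin-2, contactin-5 and contactin-4. Of the 7 steps between neighbours in this order, the step of contactin-2 over contactin-5 was the single one larger than its spread over species (1.27 ± 1.23 log2 units, SD), and contactin-2 was the higher in 8 of 10 species. The other neighbours did not differ beyond their spread. As a group the 8 genes were well expressed, with a median of their mean levels of 46.0 FPKM against 14.5 FPKM over all 630 genes.

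**Figure D1:**
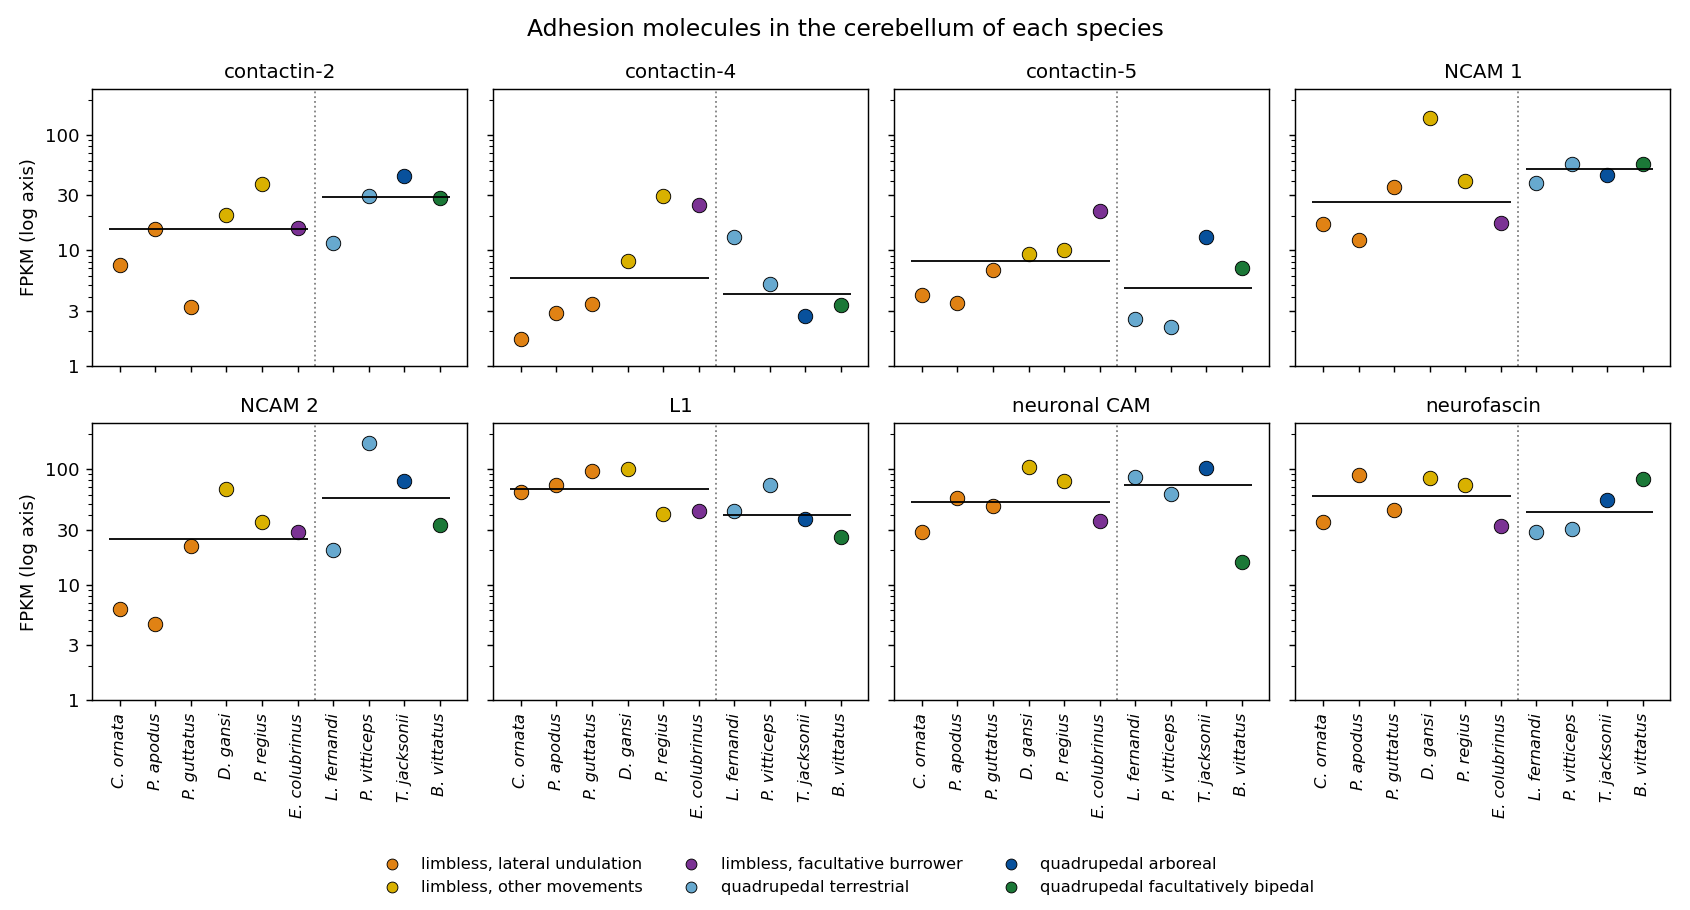
FPKM (log axis) of each adhesion molecule in the 10 species, limbless species left of the dotted line and quadrupedal species right of it; each point is the single value of a species, colours give the locomotor mode, and black bars are medians of the 6 limbless and the 4 quadrupedal species. The 3 lateral undulation species (orange) are among the 5 lowest for the contactins and both NCAMs, a pattern of 15.4% of all genes. For no molecule do all 3 lie below every other species. None of the 3 is among the 5 lowest for L1, which lies between 63.2 and 96.5 FPKM in them.

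Contactin-2, which in mammals lies along young granule cell axons and beside the nodes of myelinated ones, had 7.43 FPKM in C. ornata, 15.4 in P. apodus, 3.22 in P. guttatus, 20.2 in D. gansi, 37.9 in P. regius and 15.5 in E. colubrinus. In the quadrupedal species it had 11.7 FPKM in L. fernandi, 29.7 in P. vitticeps, 43.8 in T. jacksonii and 28.3 in B. vittatus. It was highest in the chameleon and lowest in P. guttatus, 13.6 times apart, and the limbless and quadrupedal ranges overlapped through L. fernandi on one side and P. regius on the other.

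Contactin-4, known in the mouse for the wiring of olfactory and visual axons, had 1.72 FPKM in C. ornata, 2.86 in P. apodus, 3.48 in P. guttatus, 8.08 in D. gansi, 29.5 in P. regius and 24.8 in E. colubrinus. Among the quadrupedal species L. fernandi had 13.2 FPKM, P. vitticeps 5.09, T. jacksonii 2.69 and B. vittatus 3.37. As deposited, the highest values were thus in the python and the sand boa, 17.2-fold above C. ornata at the extreme. Those of the other snakes overlapped with the lizard values. After centring, contactin-4 was highest in L. fernandi, with P. regius and E. colubrinus next, and lowest in T. jacksonii.

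Contactin-5, which in rodents is found in auditory and retinal circuits, had 4.13 FPKM in C. ornata, 3.5 in P. apodus, 6.80 in P. guttatus, 9.31 in D. gansi, 10.2 in P. regius and 22.2 in E. colubrinus. In the quadrupedal species it had 2.57 FPKM in L. fernandi, 2.16 in P. vitticeps, 13.1 in T. jacksonii and 7.00 in B. vittatus. E. colubrinus was highest and, as deposited, the 2 terrestrial quadrupeds were lowest, while T. jacksonii lay above 5 of the 6 limbless species. Once libraries were centred, contactin-5 became one of the steadier genes of the table: 21.4% of all genes had a smaller SD over species, against 47.3% before centring.

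NCAM 1, the carrier of polysialic acid on growing axons, had 16.8 FPKM in C. ornata, 12.3 in P. apodus, 35.4 in P. guttatus, 139 in D. gansi, 39.9 in P. regius and 17.4 in E. colubrinus. In the quadrupedal species it had 38.3 FPKM in L. fernandi, 56.0 in P. vitticeps, 45.2 in T. jacksonii and 56.2 in B. vittatus. The 4 quadrupedal values lay close together, whereas the limbless values ran from under them to the far higher D. gansi.

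NCAM 2, its paralog, known in the mouse from the sorting of olfactory axons, had 6.18 FPKM in C. ornata, 4.57 in P. apodus, 21.7 in P. guttatus, 66.9 in D. gansi, 35.1 in P. regius and 28.3 in E. colubrinus. The quadrupedal species had 19.97 FPKM in L. fernandi, 168.59 in P. vitticeps, 79.3 in T. jacksonii and 33.1 in B. vittatus. It was the most variable of the 8 genes, 36.9-fold between P. vitticeps and P. apodus, and 93.5% of all genes had a smaller SD on the log2 scale. In P. vitticeps it ranked 4 among the 630 genes, against 404 in P. apodus.

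L1, which drives axon outgrowth and bundling, had 63.2 FPKM in C. ornata, 72.6 in P. apodus, 96.5 in P. guttatus, 100.25 in D. gansi, 40.8 in P. regius and 43.7 in E. colubrinus. The quadrupedal species had 43.2 FPKM in L. fernandi, 73.1 in P. vitticeps, 37.3 in T. jacksonii and 25.7 in B. vittatus. Highest and lowest species were 3.89-fold apart, and only 13.2% of all genes had a smaller SD as deposited (51.4% after centring).

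Neuronal CAM, an ankyrin-bound partner of contactins at nodes of Ranvier, had 28.7 FPKM in C. ornata, 56.7 in P. apodus, 48.0 in P. guttatus, 103.7 in D. gansi, 78.6 in P. regius and 35.4 in E. colubrinus. Among the quadrupedal species L. fernandi had 85.2 FPKM, P. vitticeps 60.4, T. jacksonii 102.25 and B. vittatus 15.8. In L. fernandi it was the highest of all 630 genes (rank 1), whereas in B. vittatus, the lowest species, it ranked 229.

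Neurofascin, which on neurons marks the start of the axon and on glia seals the myelin loops beside the node, had 34.8 FPKM in C. ornata, 88.7 in P. apodus, 44.0 in P. guttatus, 83.5 in D. gansi, 73.4 in P. regius and 32.5 in E. colubrinus. In the quadrupedal species it had 28.7 FPKM in L. fernandi, 30.5 in P. vitticeps, 54.5 in T. jacksonii and 82.7 in B. vittatus. It had the smallest fold between species of the 8 genes (3.10), and its high values were scattered over both locomotor categories. D. gansi had the highest value for 3 of the 8 molecules (NCAM 1, L1 and neuronal CAM), and it was the highest species for 14.3% of all genes. After centring, D. gansi was highest for 1 of the 8, NCAM 1, with L1 highest in P. apodus and neuronal CAM in L. fernandi. The median fold between highest and lowest species was 10.8 for the 8 molecules and 10.3 for all genes.

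The mixture of adhesion molecules differed from library to library. L1 made up 38.8% of the summed FPKM of the 8 genes in C. ornata and 37.2% in P. guttatus. The leading molecule was NCAM 2 in P. vitticeps with 39.6%, neuronal CAM in L. fernandi with 35.1%, and neurofascin in P. apodus with 34.6% and in B. vittatus with 32.8%. In E. colubrinus contactin-4 took 11.3% and contactin-5 10.1%, whereas in the other species contactin-4 took at most 8.54% and contactin-5 at most 3.45%. The summed level of the 8 genes was between 162.9 FPKM in C. ornata and 530.63 FPKM in D. gansi, and its share of all 630 genes between 1.38% in E. colubrinus and 3.86% in L. fernandi.

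**Figure D2:**
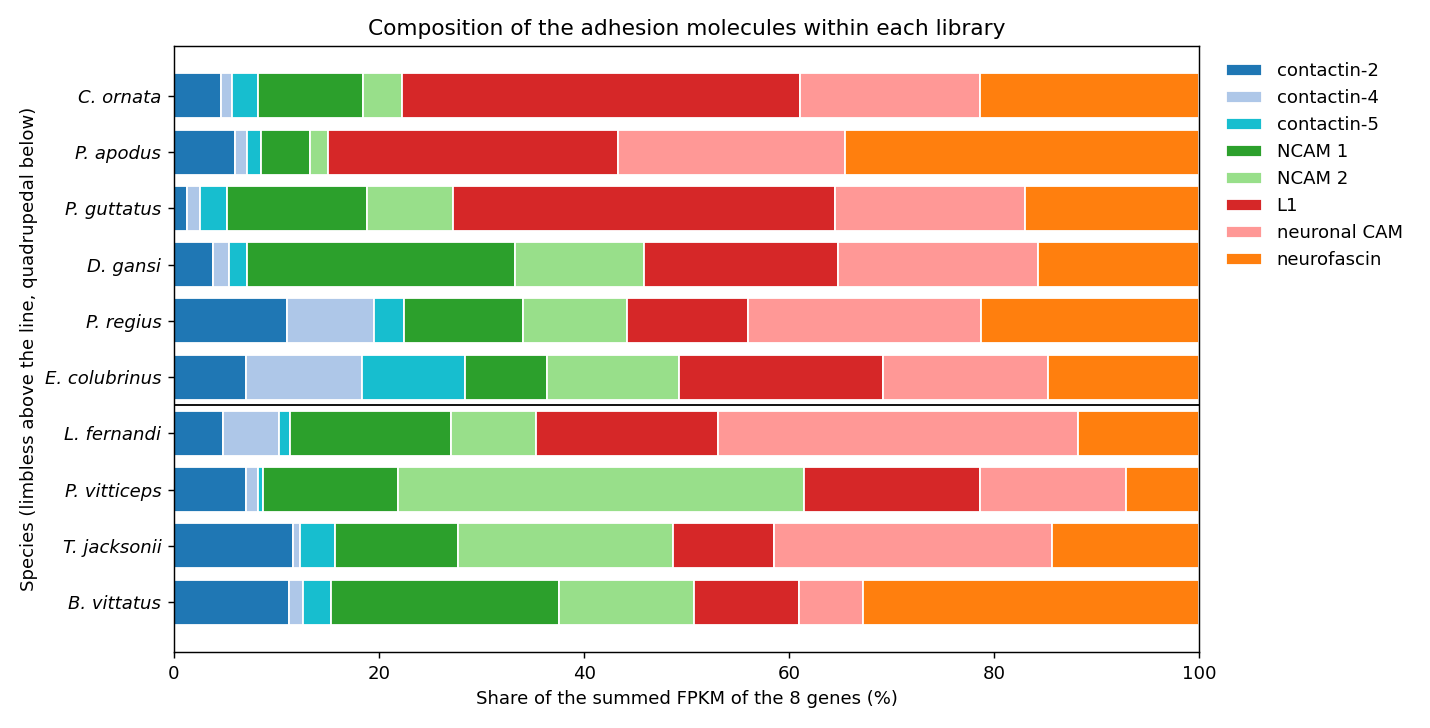
Share (%) of each adhesion molecule in the summed FPKM of the 8 genes, with 1 bar per species, limbless species above the line and quadrupedal species below it. L1 (red) takes 38.8% in C. ornata and 37.2% in P. guttatus, and NCAM 2 (light green) takes 39.6% in P. vitticeps.

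Between limbless and quadrupedal species, the NCAMs and contactin-2 averaged lower and L1, contactin-4, contactin-5 and neurofascin higher in limbless species, but no difference passed the test. Limma, with p-values adjusted by Benjamini-Hochberg over all genes, called 0 of the 8 molecules and 0 of 630 genes (0.0%). At an unadjusted p under 0.05, limma had 0 of the 8 and 62 of the 630 genes (9.84%), and an exact permutation test per gene had 55 genes and 0 after adjustment. The mean was higher in limbless species for 4 of the 8 molecules, against 71.0% of all genes, and for 3 of the 8 after centring, against 51.3%. The median difference of the 8 was 0.14 log2 units beside 0.35 for all genes as deposited, and -0.21 beside 0.01 after centring.

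NCAM 2 had the largest of these differences. It averaged 27.1 ± 22.9 FPKM in limbless species (n = 6), with a median of 25.0, and 75.3 ± 67.2 FPKM in quadrupedal species (SD, n = 4), with a median of 56.2, a log2 difference of -1.48 ± 0.73 (SE, limma adjusted p = 0.548). After centring, the difference was -1.82 ± 0.61 (SE), with an adjusted p of 0.254 by limma. Without P. vitticeps, the species of the highest value, the difference as deposited was -0.94. The groups overlapped: C. ornata and P. apodus lay below every quadrupedal species, and the other 4 limbless species lay above L. fernandi.

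Contactin-2 averaged 16.6 ± 12.1 FPKM in limbless and 28.4 ± 13.1 FPKM in quadrupedal species, with a log2 difference of -0.92 ± 0.61 (SE, limma adjusted p = 0.68). Its centred difference was -1.26 ± 0.57 (limma adjusted p = 0.44), and as deposited it was -0.57 without P. guttatus. NCAM 1 had a median of 26.4 FPKM in limbless and of 50.6 FPKM in quadrupedal species (log2 difference -0.66 ± 0.61, limma adjusted p = 0.764), and the difference was -1.10 without D. gansi and -0.42 without P. apodus. Unadjusted and centred, NCAM 2 and contactin-2 were lower in limbless species at a limma p under 0.05, which makes 2 of the 8 molecules, where 4.44% of all genes were lower at that level.

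L1 averaged 69.5 ± 25.3 FPKM in limbless and 44.8 ± 20.2 FPKM in quadrupedal species, a log2 difference of 0.64 ± 0.50 (SE, limma adjusted p = 0.754). The log2 difference was 0.57 ± 0.59 for contactin-5, 0.45 ± 0.70 for contactin-4, 0.29 ± 0.52 for neurofascin and -0.02 ± 0.58 for neuronal CAM, with limma adjusted p-values between 0.764 and 0.995. Neurofascin changed sign on centring (-0.05). Single species moved the contactins: contactin-4 was at 0.074 without P. regius, 0.12 without E. colubrinus and 0.85 without L. fernandi, and contactin-5 at 0.26 without P. vitticeps, 0.29 without E. colubrinus and 0.98 without T. jacksonii. L1 was at 0.41 without B. vittatus, and neurofascin ranged from 0.085 without L. fernandi to 0.58 without B. vittatus. For none of the 8 molecules did the limbless and the quadrupedal values separate. Over all genes, 2.7% had every limbless species above every quadrupedal one and 0.317% every limbless species below.

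Markers of cell types went both ways, with 7 of 11 lower on average in limbless species, where 71.0% of all genes were higher. Electrogenic sodium bicarbonate cotransporter 1, a transporter of astroglia, had 3.73 to 53.5 FPKM in limbless and 31.9 to 97.7 FPKM in quadrupedal species, a log2 difference of -1.57 ± 0.64 (SE, limma adjusted p = 0.367). The second astroglial marker, fibroblast growth factor receptor 3, differed by -0.14 ± 0.78, and the summed level of the 2 markers was 12.02 to 73.1 FPKM in limbless and 36.7 to 128.91 FPKM in quadrupedal species. The summed Purkinje cell (23.7 to 193 FPKM in limbless and 51.8 to 105 FPKM in quadrupedal species), granule cell (109 to 691 FPKM in limbless and 134 to 337 FPKM in quadrupedal species) and oligodendrocyte lineage markers (10.3 to 77.0 FPKM in limbless and 10.6 to 69.3 FPKM in quadrupedal species) overlapped as well. Metabotropic glutamate receptor 1 (0.81 ± 0.47, limma adjusted p = 0.621) and voltage-dependent T-type calcium channel subunit alpha-1G (1.23 ± 0.62, limma adjusted p = 0.555), both Purkinje cell markers, averaged higher in limbless species. The third Purkinje cell marker, inositol 1,4,5-trisphosphate receptor type 1, averaged lower (-0.40 ± 0.87, limma adjusted p = 0.868). The part of the markers in the differences of the adhesion molecules was not tested.

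**Figure D3:**
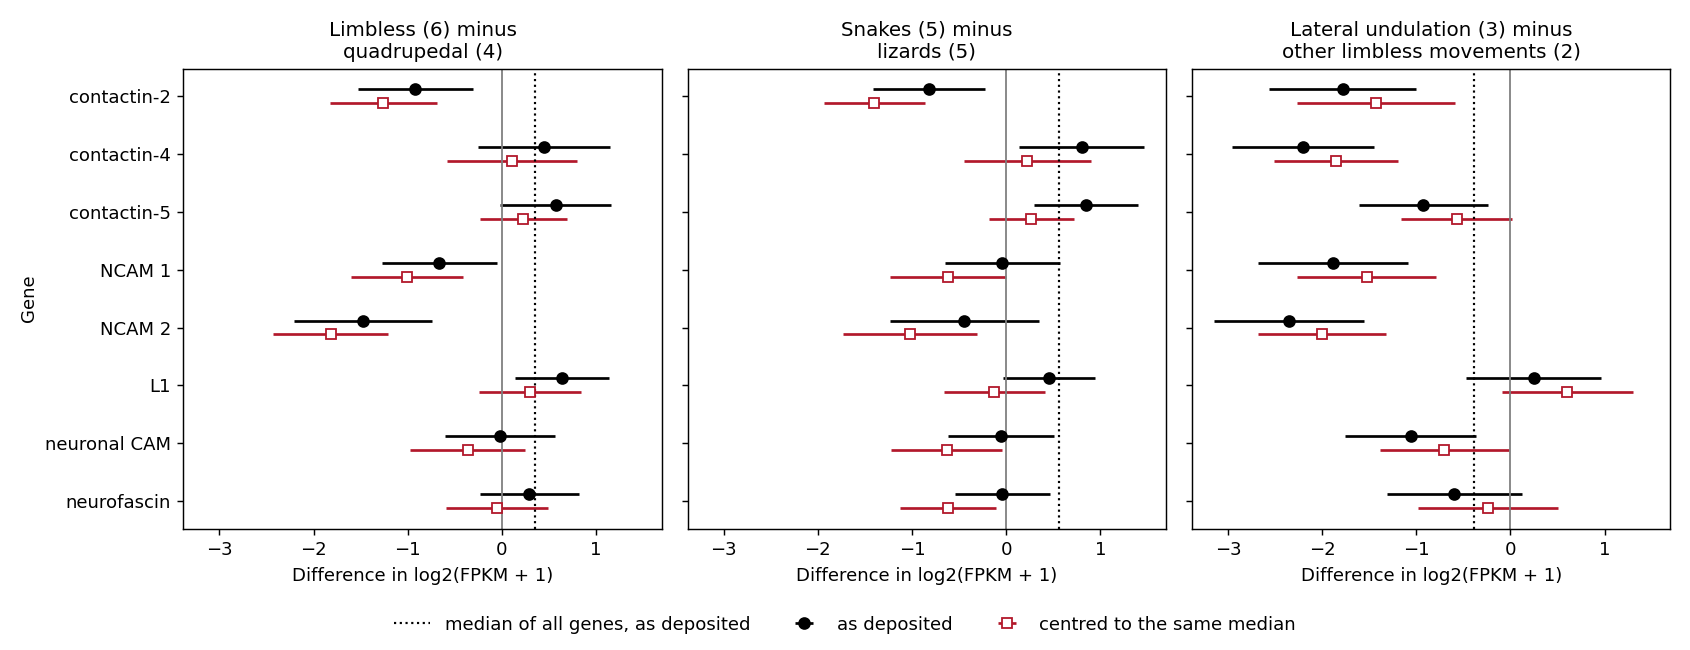
Difference in mean log2(FPKM + 1), with its standard error from limma, for the 8 molecules in 3 comparisons, as deposited (black circles) and after centring each library to the same median (red squares); the dotted line is the median difference of all 630 genes as deposited. Contactin-2, contactin-4 and the NCAMs lie furthest from 0 under lateral undulation against other limbless movements, with -2.35 for NCAM 2 and -2.20 for contactin-4. No point passed the adjusted test.

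The comparison by lineage moves P. apodus to the other side. As deposited, contactin-4 and contactin-5 averaged higher and contactin-2 lower in snakes, and no difference passed the test. Limma called 0 of the 8 molecules and 0 of 630 genes (0.0%) between snakes and lizards. At an unadjusted p under 0.05 there were 0 of the 8 and 85 of the 630 genes (13.5%) by limma, and 80 genes by the exact permutation test, 0 after adjustment. The mean was higher in snakes for 3 of the 8 molecules, against 80.8% of all genes, and for 2 of the 8 after centring, against 48.9%. The median difference of the 8 molecules was -0.04 log2 units beside 0.56 for all genes, and -0.62 beside -0.02 after centring.

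Contactin-2 averaged 16.9 ± 13.5 FPKM in snakes and 25.8 ± 12.8 FPKM in lizards (SD, n = 5 each), with a log2 difference of -0.82 ± 0.60 (SE) as deposited (limma adjusted p = 0.501) and -1.40 ± 0.54 centred (limma adjusted p = 0.603). Unadjusted and centred, contactin-2 was the 1 molecule of the 8 lower in snakes at p under 0.05, where 4.13% of all genes were. Contactin-5 went the other way, with 10.5 ± 6.92 FPKM in snakes and 5.66 ± 4.55 FPKM in lizards (log2 difference 0.85 ± 0.55, limma adjusted p = 0.486). Contactin-4 averaged 13.5 ± 12.8 FPKM in snakes and 5.44 ± 4.44 FPKM in lizards (log2 difference 0.80 ± 0.67, limma adjusted p = 0.549). Without P. guttatus the difference of contactin-2 was -0.40, and that of contactin-4 was 0.39 without P. regius, 0.45 without E. colubrinus and 1.26 without C. ornata. Contactin-5 was at 0.55 without E. colubrinus. Contactin-5 as a ratio to contactin-2, chosen after the values were seen, was 0.268 to 2.11 in snakes and 0.0727 to 0.298 in lizards. Only P. regius among the snakes fell within the lizard range. How often other pairs of genes do the same was not tested. The log2 differences of NCAM 1, neuronal CAM and neurofascin were close to 0 (-0.04, -0.05 and -0.04), that of L1 was 0.45 ± 0.49, turning to -0.13 on centring, and that of NCAM 2 was -0.44 ± 0.79. No molecule separated the lineages, where 1.9% of all genes had every snake above every lizard and 0.0% every snake below.

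Among the limbless species of several habitats, 6 of the 8 molecules had lower values in all 3 lateral undulation species than in both species of other movements: contactin-2, contactin-4, contactin-5, NCAM 1, NCAM 2 and neuronal CAM. That ordering was found in 21.7% of all genes. After centring it held for 4 of the 8 (contactin-4, contactin-5, NCAM 1 and NCAM 2), beside 14.0% of all genes. L1 and neurofascin overlapped between the groups on both scales. The adjusted test passed for 0 of the 8 molecules and 0 of 630 genes (0.0%) by limma. At an unadjusted p under 0.05, limma had 77 genes (12.2%) and the exact permutation test 0. Among the 77 were 4 of the 8, all lower under lateral undulation (contactin-2, contactin-4, NCAM 1 and NCAM 2), where 10.8% of all genes were lower at that level (7.14% after centring, with 2 of the 8). With 3 species against 2, the smallest p an exact permutation test allows is 0.1, so that test could pass no gene.

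NCAM 2 averaged 10.8 ± 9.43 FPKM under lateral undulation (n = 3) and 51.0 ± 22.5 FPKM under other movements (SD, n = 2), with a log2 difference of -2.35 ± 0.80 (SE, limma adjusted p = 0.28). Contactin-4 averaged 2.69 ± 0.89 FPKM under lateral undulation and 18.8 ± 15.1 FPKM under other movements, with a log2 difference of -2.20 ± 0.75 (limma adjusted p = 0.28). Its lateral undulation values were close to each other, and the wide spread came from the gap between D. gansi and P. regius: the difference was -1.33 without P. regius and -3.08 without D. gansi.

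NCAM 1 averaged 21.5 ± 12.2 FPKM under lateral undulation and 89.3 ± 69.9 FPKM under other movements (log2 difference -1.88 ± 0.79, limma adjusted p = 0.39). Contactin-2 averaged 8.67 ± 6.17 FPKM under lateral undulation and 29.1 ± 12.5 FPKM under other movements (log2 difference -1.78 ± 0.78, limma adjusted p = 0.394). These were the remaining molecules with an unadjusted p under 0.05, and after centring contactin-2 no longer separated the groups. Without P. regius the difference of NCAM 1 was -2.77, and without D. gansi it was -0.997, so that the size of this difference moved with the single species left on that side.

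Neuronal CAM had a log2 difference of -1.06 ± 0.70 (44.5 ± 14.4 FPKM under lateral undulation and 91.1 ± 17.8 FPKM under other movements, limma adjusted p = 0.569). Contactin-5 had -0.93 ± 0.68 (4.81 ± 1.75 FPKM under lateral undulation and 9.75 ± 0.62 FPKM under other movements, limma adjusted p = 0.648), neurofascin -0.60 ± 0.71 and L1 0.25 ± 0.72. The mean was lower for 7 of the 8 molecules, against 66.8% of all genes, and for 7 of the 8 after centring, against 52.2%. L1 was thus the single molecule of the 8 with a higher mean under lateral undulation, 77.4 ± 17.2 FPKM against 70.5 ± 42.1 FPKM, and this sign turned to -0.39 when P. regius was left out. The median difference of the 8 molecules was -1.42 log2 units beside -0.39 for all genes, and -1.07 beside -0.03 after centring.

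Setting the lateral undulation species against wider groups, an alternative chosen after the data were seen, narrowed the pattern. Both wider groups hold E. colubrinus, whose own movement the study gives as slow lateral undulation. With E. colubrinus added to the other limbless species, 3 against 3, 4 of the 8 molecules (the 3 contactins and NCAM 2) had every lateral undulation species lowest, beside 17.5% of all genes, and 3 of the 8 after centring, beside 9.52%. Against all 7 other species, 0 of the 8 did so, beside 2.22% of all genes, and after centring NCAM 2 alone, beside 3.17%. The 3 lateral undulation species were among the 5 lowest of the 10 species for the same 6 molecules that separated from other movements, a pattern of 15.4% of all genes. After centring this held for 5 of the 8, without neuronal CAM, and for 13.7% of all genes.

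Markers of cell types moved alongside. The summed FPKM of the 3 Purkinje cell markers was 23.7 to 90.9 in the lateral undulation species and 140.51 to 193 in the species of other movements, without overlap. That of 3 oligodendrocyte lineage markers (tenascin-R, ATP-binding cassette sub-family A member 2 and myelin transcription factor 1) was 10.3 to 30.3 under lateral undulation and 76.9 to 77.0 under other movements, also without overlap. As single genes, 21.7% of the whole table had this ordering. On their own, metabotropic glutamate receptor 1 (18.8 to 30.4 FPKM against 23.1 to 27.4) and tenascin-R (2.59 to 18.8 FPKM against 6.56 to 45.1) overlapped. The other markers of both lists did not. The summed granule cell markers overlapped (123 to 221.04 under lateral undulation and 109 to 691 under other movements). So did the sum of the 2 astroglial markers (12.02 to 62.3 under lateral undulation and 31.1 to 73.1 under other movements). Of these 2, electrogenic sodium bicarbonate cotransporter 1 did not overlap on its own (3.73 to 16.0 FPKM against 20.6 to 53.5). Fibroblast growth factor receptor 3 did (0.51 to 46.3 FPKM against 10.4 to 19.6). All 11 markers had a lower mean under lateral undulation as deposited, where 66.8% of all genes did, and 10 of the 11 after centring, with metabotropic glutamate receptor 1 higher (0.24), where 52.2% of all genes were lower. Past the adjusted limma test went 0 of the 11. None was at 0 in any library, as no value of the table was, but some values were very low. Voltage-dependent T-type calcium channel subunit alpha-1G was at 0.5 FPKM in B. vittatus and fibroblast growth factor receptor 3 at 0.51 FPKM in P. apodus. The authors' threshold was also 0.5 FPKM, and whether that value is a floor of the table is not known. The part of these markers in the lower levels of the adhesion molecules was not tested.

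Ratios within a library do not depend on its scale, and those given here were chosen after the values were seen. NCAM 1 stood at 0.266 of the level of L1 in C. ornata, 0.169 in P. apodus and 0.367 in P. guttatus, against 1.38 in D. gansi and 0.978 in P. regius. The 3 lateral undulation species had the lowest ratios of all 10, with E. colubrinus next at 0.398 and the quadrupedal species between 0.766 and 2.18. Of the 7 other molecules, 5 had a lower ratio to L1 in every lateral undulation species than in both species of other movements, where 26.6% of the 629 other genes did. Against all 7 other species, 3 of the 7 (contactin-4, NCAM 1 and NCAM 2) did, where 7.0% of genes did.

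Neuronal CAM to L1 was 0.454 to 0.782 under lateral undulation and 1.03 to 1.93 under other movements, without overlap, but 0.615 in B. vittatus lay inside the lateral undulation range. Contactin-4 to contactin-5 was 0.416 to 0.817 under lateral undulation and 0.868 to 2.90 under other movements. In quadrupedal species it reached from 0.206 in T. jacksonii to 5.14 in L. fernandi. The share of other gene pairs that separate these 2 groups was not tested. NCAM 2 exceeded NCAM 1 in 3 species, P. vitticeps (3.01), T. jacksonii (1.76) and E. colubrinus (1.63), and in no species of the lateral undulation or other movement groups. The balance of neurofascin to L1 was highest in B. vittatus (3.21), the species lowest in L1.

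**Figure D4:**
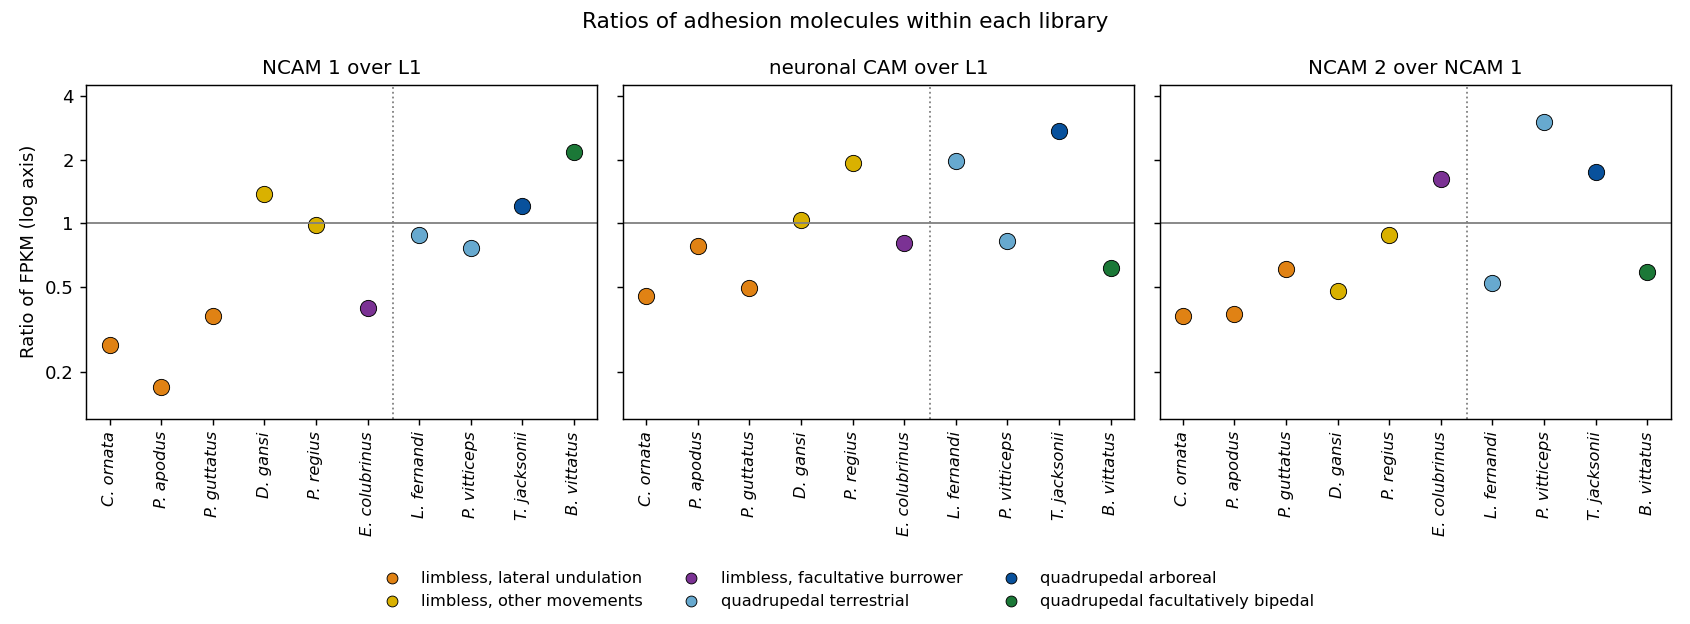
Ratios of FPKM within each library (log axis) for NCAM 1 over L1, neuronal CAM over L1 and NCAM 2 over NCAM 1, with 1 point per species and limbless species left of the dotted line; the grey line marks equal levels. NCAM 1 over L1 is 0.169 to 0.367 in the 3 lateral undulation species and 0.978 to 1.38 in the 2 species of other movements.

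Across the 10 species, the NCAM paralogs moved most alike of the 28 pairs of molecules. On centred log2 values Pearson's r between NCAM 1 and NCAM 2 was 0.70 (permutation p = 0.0229, adjusted p = 0.64 over 28 pairs) and Spearman's rho was 0.79 (permutation p = 0.0087, adjusted p = 0.244), and without D. gansi and E. colubrinus, the 2 species farthest from the median of NCAM 1, r was 0.76. L1 and neuronal CAM came next, with r = 0.59 (permutation p = 0.0789, adjusted p = 0.708), rho = 0.75 (permutation p = 0.0179, adjusted p = 0.251) and r = 0.54 without E. colubrinus and P. regius. The lowest pairs were contactin-5 with L1 (r = -0.48, permutation p = 0.164, adjusted p = 0.708; rho = -0.44, permutation p = 0.206, adjusted p = 0.722; r = -0.36 without E. colubrinus and P. vitticeps) and contactin-5 with NCAM 2 (r = -0.18, permutation p = 0.622, adjusted p = 0.922; rho = 0.19, permutation p = 0.609, adjusted p = 0.969). That last pair had r = 0.84 without E. colubrinus and P. vitticeps, so its sign rested on those species. The order of the pairs depended on centring. When not centred, NCAM 1 with NCAM 2 stayed highest (r = 0.76), but L1 with neuronal CAM fell to 0.34, below contactin-2 with NCAM 2 (0.58). Contactin-2 with L1 was then the lowest pair (-0.53, against -0.13 centred), and contactin-5 with L1 was at -0.28. Of the 28 pairs 20 were positive, the median r was 0.26, and 0 passed the adjusted permutation test by Pearson's r or Spearman's rho, with 1 at an unadjusted Pearson p under 0.05. Species are not independent points, since they share ancestry.

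**Figure D5:**
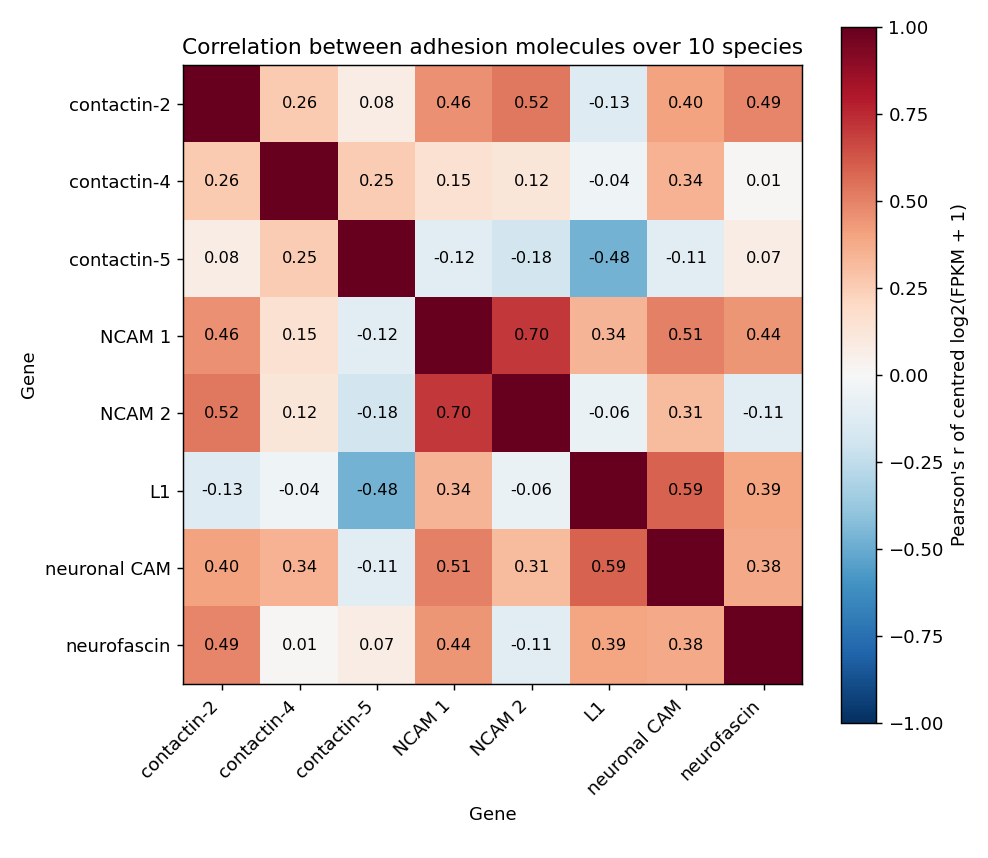
Pearson's r between the adhesion molecules over 10 species on centred log2(FPKM + 1), coloured from -1 (blue) to 1 (red). NCAM 1 with NCAM 2 (0.70) and L1 with neuronal CAM (0.59) are the highest pairs, and contactin-5 with L1 (-0.48) is the lowest.

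The genes whose pattern over the 10 species was most like that of each molecule, among the other 629 and by r of centred log2 values, are given as a description. For NCAM 1 they were eukaryotic elongation factor 2 kinase, a brake on protein synthesis (r = 0.91), and reelin, the matrix protein secreted by granule cells (0.88). For NCAM 2 they were agrin, a proteoglycan of basement membranes and synapses (0.89), and beta-adrenergic receptor kinase 2 (0.88). L1 was followed most closely by ADP-dependent glucokinase (0.90) and by tenascin, a matrix glycoprotein (0.87). For neuronal CAM they were arginine N-methyltransferase 9 (0.88) and synaptojanin-1, a lipid phosphatase that helps recycle synaptic vesicles (0.86), and for neurofascin rho guanine nucleotide exchange factor 7 (0.84) and carboxypeptidase D (0.82). Among the contactins, contactin-5 went with anoctamin-7 (0.92) and tissue-type plasminogen activator (0.86), contactin-4 with protocadherin-1 (0.91) and ubiquitin-conjugating enzyme E2 H (0.84), and contactin-2 with 1-phosphatidylinositol 4,5-bisphosphate phosphodiesterase beta-1, a phospholipase C (0.83, in 1 of 2 rows of that name), and huntingtin (0.78). No molecule of the 8 was among the 2 genes most like another. Each gene named was picked for its high r among 629, so that r is no test of a link. When not centred, r was 0.79 for L1 with ADP-dependent glucokinase and 0.77 for L1 with tenascin. Over all these pairs it then ran from 0.73 (neurofascin with rho guanine nucleotide exchange factor 7) to 0.97 (NCAM 1 with eukaryotic elongation factor 2 kinase). Arginine N-methyltransferase 9, anoctamin-7 and protocadherin-1 were as low as 0.5 FPKM, the value of the authors' threshold, in at least 1 species.

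A set of 26 genes in 5 lists, called partners here, was spread in both directions. It holds ligands, receptors, anchors and scaffolds known to work with these molecules. Its last list, other immunoglobulin superfamily members, was chosen by family and not as known partners. Between limbless and quadrupedal species 12 were higher and 14 lower in limbless species, a share of 46.2% higher beside 71.0% of all genes. The median log2 difference was -0.14 beside 0.35 for all genes. Limma called 0 of the 26, with 1 (3.85%) at an unadjusted p under 0.05, beside 9.84% of all genes. After centring, 9 were higher and 17 lower. That 1 gene was netrin receptor UNC5A, a receptor for repulsive axon guidance, from the list chosen by family. It had 6.93 to 48.4 FPKM in limbless and 1.48 to 14.8 FPKM in quadrupedal species (log2 difference 1.76 ± 0.66, limma adjusted p = 0.284).

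Of the ankyrins and axon initial segment partners, 3 of 4 had a higher mean in limbless species, as 71.0% of all genes did, and 2 of 4 after centring. Ankyrin-2 had 12.1 to 168.17 FPKM in limbless and 13.1 to 72.5 FPKM in quadrupedal species (log2 difference 1.25 ± 0.73, limma adjusted p = 0.621), and ankyrin-1 had 11.8 to 46.2 FPKM in limbless and 1.39 to 27.7 FPKM in quadrupedal species (1.05 ± 0.65, limma adjusted p = 0.647). Of the 7 receptors, 2 were higher, and ephrin type-A receptor 4, a guidance receptor, had the smallest p of them, with 6.25 to 48.3 FPKM in limbless and 4.51 to 30.9 FPKM in quadrupedal species (1.27 ± 0.63, limma adjusted p = 0.548). Plexin-A1, a semaphorin receptor, differed by -0.64 ± 0.63 (limma adjusted p = 0.764).

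Of the 7 extracellular ligands, 3 were higher in limbless species. Reelin differed by -0.74 ± 0.65 and laminin subunit alpha-5, a basement membrane chain, by 0.69 ± 0.64 (limma adjusted p = 0.764 for both). Of the 3 scaffolds, 1 was higher, disks large homolog 3 (0.83 ± 0.57, limma adjusted p = 0.719), and disks large homolog 1 differed by -0.53 ± 0.61 (limma adjusted p = 0.782). Of the 5 other immunoglobulin superfamily members, 3 were higher, among them UNC5A and immunoglobulin superfamily member 3 (0.53 ± 0.52, limma adjusted p = 0.764).

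Under lateral undulation against other limbless movements, 7 of the 26 partners were higher and 19 lower, where 66.8% of all genes were lower. The median log2 difference was -0.91 beside -0.39 for all genes. After centring, 9 were higher and 17 lower, where 52.2% of all genes were lower. Limma called 0 of the 26, with 4 (15.4%) at an unadjusted p under 0.05, beside 12.2% of all genes. All 4 were lower: ankyrin-2 (-2.10 ± 0.89), plexin-A2 (-2.13 ± 0.93), disks large homolog 5 (-1.87 ± 0.72) and agrin (-1.81 ± 0.81), named here after their values were seen. Between snakes and lizards 20 of the 26 were higher and 6 lower in snakes, a share of 76.9% beside 80.8% of all genes, with a median log2 difference of 0.44 beside 0.56 (12 higher and 14 lower after centring). Limma called 0, with 2 (7.69%) at an unadjusted p under 0.05, beside 13.5% of all genes. Reelin, tenascin-R and fibroblast growth factor receptor 3 stand in a partner list and in a marker list.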

How the data were processed

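Per the labels and the study's methods, the authors removed ribosomal RNA, built stranded libraries, trimmed reads with Trimmomatic, assembled transcripts de novo for each species, inferred one-to-one orthologs and estimated abundance with RSEM. The authors' FPKM, as deposited, allow for the length of each transcript and the mapped fragments of each library, and orthologs above 0.5 FPKM in at least 1 sample were kept by them. FPKM do not give the number of fragments, so depth is unknown and no counting interval is given. Coordinates and sequences are not used here. Sequencing was in duplicates, but the table holds 1 value per species.

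Species were mapped by their labels, and category, lineage and mode came from the study's species table. With no filter, all 630 genes were fitted on log2(FPKM + 1) in limma (version 3.58.1, under R 4.3.3), two-sided, at a Benjamini-Hochberg adjusted p of 0.05. Adding 1 shrinks the fold of genes with low values. Exact permutation tests per gene were two-sided. Correlations used 100000 permutations of species. The fit was checked on simulated data with known shifts. For limbless against quadrupedal species it recovered 12% of shifts of 1 log2 unit and 68% of shifts of 2. Between snakes and lizards it recovered 22% and 70%. For lateral undulation it recovered 4% and 10%, and 52% of shifts of 3. The fit also called unshifted genes, 6 between limbless and quadrupedal species, 7 between snakes and lizards and 8 for lateral undulation. The simulation shifted many genes at once with independent normal noise, so a lone shifted gene may be recovered less often. A gene that did not pass may therefore still differ. Alternatives were pseudocounts of 0.1 and 0.5, a minimum mean of 5 FPKM, centring, sum scaling, quantile normalization, an intensity trend, leaving out 22 rows of doubtful name or each species, and 2 wider comparison groups chosen after seeing the data. The members, lists and tests were chosen with earlier results of these data known. The genes named are the 8 molecules, the 2 genes most like each, the 2 partners of smallest p per list between limbless and quadrupedal species, any partner past the threshold, and others where the text says so. Figures and tables were made with pandas 2.3.3, numpy 2.4.6, matplotlib 3.10.9 and scipy 1.17.1 under Python 3.11.15.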

Additional observations from a re-analysis of the deposited data

Results flagged for a closer look

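Dixon's ratio marked a species far from the others of its group in 4 of 32 combinations of molecule and group, where chance marks about 1 in 20, or 1.6. That rate assumes normal values. The groups share species, and NCAM 1 in D. gansi is counted among limbless species and among snakes. The combinations are therefore not independent, and 4 beside 1.6 is no measure of an excess. Contactin-4 was at 13.2 FPKM in L. fernandi, with the other 4 lizards between 2.69 and 5.09 FPKM. Contactin-5 was at 22.2 FPKM in E. colubrinus, with the other 5 limbless species between 3.5 and 10.2 FPKM. NCAM 1 was at 138.7 FPKM in D. gansi, with the other limbless species between 12.3 and 39.9 FPKM and the other snakes between 16.8 and 39.9 FPKM. On the log2 scale none of these 4 was marked, and the 1 combination marked there was another, NCAM 1 at 12.3 FPKM in P. apodus with the other 4 lizards between 38.3 and 56.2 FPKM. After centring, NCAM 1 in D. gansi among limbless species was the 1 combination marked.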

How the results depend on the processing

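No paired analysis was possible because the samples are different species with 1 sample each, and their labels carry no number that ties one to another. Over all alternatives the smallest limma adjusted p of any of the 8 molecules was 0.105, for contactin-4 under lateral undulation. Some log2 differences turned sign. Centring moves the differences of all genes in a comparison by the same amount, and what else turned a sign was not tested. Between limbless and quadrupedal species neurofascin went to -0.049 centred, -0.12 quantile normalized and -0.046 scaled to the same sum, and L1 between snakes and lizards went to -0.13, -0.018 and -0.072 under those settings. Against all 7 other species, added after seeing the data, neurofascin was 0.038 and 2 molecules were higher under lateral undulation. Contactin-5 with NCAM 2 had r = 0.18 when not centred. With 1 species left out in turn, the centred r of that pair ranged from -0.32 to 0.52 (without P. vitticeps). The log2 difference of neuronal CAM then ranged from -0.59 to 0.28 between limbless and quadrupedal species, and that of L1 from -0.39 to 0.89 under lateral undulation. Between snakes and lizards NCAM 1 ranged from -0.52 to 0.22, NCAM 2 from -1.11 to 0.12, neuronal CAM from -0.48 to 0.17 and neurofascin from -0.24 to 0.16. Limma then called between 0 and 4 genes for limbless against quadrupedal species (4 without D. gansi, 2 without T. jacksonii, 1 without B. vittatus), between 0 and 2 for snakes against lizards (2 without D. gansi, 1 without B. vittatus or T. jacksonii) and between 0 and 5 for lateral undulation (5 without P. regius, 1 without D. gansi, where the lone species left is assumed to vary like the others), with 0 of the 8 molecules among them. The number of molecules higher ranged from 3 to 7 in snakes (7 without C. ornata, 6 without E. colubrinus, 5 without B. vittatus, P. vitticeps or T. jacksonii) and from 0 to 1 under lateral undulation. On the log2 scale none of the 4 combinations of molecule and group with a species far from the others was marked, and 1 other was.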
